A study of Mus musculus with 18 samples.

Results

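The imprinted box C/D small nucleolar RNAs (snoRNAs) of the mouse hippocampus were examined by Hydro-tRNA-seq. They were chosen by name, as the entries of the deposited table that start with Snord64, Snord107, Snord113, Snord114, Snord115 or Snord116. This gave 19 of the 98 Snord entries among the 3574 entries of the table: 17 copies of Snord116 (Snord116l1 to Snord116l17), Snord64 and Snord107. The count was 0 for names that start with Snord113, Snord114 or Snord115, so the results describe Snord64 and Snord116 rather than Snord115 by name. Of the 17 Snord116 entries, 14 held near-identical reads (within 5% of each other) and were counted once, under Snord116l1. Distinct entries then numbered 6 of 85: Snord64, Snord107, Snord116l1, Snord116l9, Snord116l12 and Snord116l14. Of the 19 members, 18 had a symbol in the RefSeq gene table, and Snord107 did not.

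Box C/D snoRNAs are small nucleolar RNAs that, in general, pair with ribosomal or spliceosomal RNA and guide the methylation of the ribose at the paired base. Those of the Snrpn region are cut from introns of a long host transcript, Snhg14, which is made from the paternal chromosome only and is long and continuous in neurons. Most Snord116 and Snord115 copies have no known rRNA target, and the human SNORD116 cluster lies in the region lost in Prader-Willi syndrome. A further imprinted group of C/D snoRNAs lies beside Meg3 (the Dlk1-Meg3 region) and is made from the maternal chromosome.

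The study asked how silencing of RTP801, a stress-induced protein that the study follows in Alzheimer's disease, affects tRNA processing in WT and 5xFAD mice. All animals were male, and the WT animals had a B6SJL background. 5xFAD mice express mutated human APP and PSEN-1 under the Thy-1 promoter, which acts mainly in neurons. At 6 months of age, both hippocampi were injected in the CA1 and dentate gyrus with an AAV directed at neurons. From the H1 promoter it expressed an shRNA that was either a control (shCT) or silenced RTP801 (shRTP801), and from the RSV promoter GFP. All 4 groups therefore carried a virus and GFP, and there was no group without injection. The hippocampi were taken 4 weeks later, and 1 library was made per mouse. The WT shCT group had 5 mice and the WT shRTP801 group 4. Among 5xFAD mice, 3 received shCT and 6 shRTP801. Hydro-tRNA-seq cuts RNA of 60 to 100 nucleotides out of a gel and hydrolyses it before the library is made, so a snoRNA is seen as fragments, and a change in the cut of the gel would change its count. The whole hippocampus was used, so fewer neurons and less snoRNA per neuron cannot be told apart. The table holds no entry for the mRNA of RTP801, so the silencing was not checked here.

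Each member is given as a percentage of all reads on Snord entries, with copies counted once. In all, 3 libraries held few Snord reads and stood apart: WT shCT mouse 5 had 69, 5xFAD shRTP801 mouse 7 had 915 and WT shRTP801 mouse 4 had 6242. The other 15 libraries had 130957 to 1722571. Snord reads made up 5.56% ± 0.746 (SD, n = 3) of all reads in 5xFAD shCT mice, 3.69% ± 2.47 (SD, n = 4) in WT shRTP801 mice, 1.96% ± 1.74 (SD, n = 5) in WT shCT mice and 1.95% ± 1.56 (SD, n = 6) in 5xFAD shRTP801 mice. A percentage of Snord reads and a percentage of all reads can therefore move in opposite directions, and both are given where they do. Of the neuronal microRNA list, 8 entries were present with 795 reads in total, and of the oligodendrocyte list 2 entries with 5907 reads. The counts were 0 of 4 for myeloid and blood, 0 of 1 for liver and 0 of 3 for muscle microRNA genes. These lists were too sparse to check the tissue.

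Sequences of the snoRNAs themselves were not used here. Instead, the start of their host transcript is shown, since Snord64 and the Snord116 entries lie downstream of it in RefSeq order and are cut from its transcript. The RefSeq table gives several starts, of which the far upstream one, shared by Snhg14 and Snrpn, and the one shared by Snrpn and Snurf are printed. Both windows lie mostly upstream of the start, on the minus strand of build GRCm38.p6, and CG pairs are in capitals. The upstream start is chr7:60450128-60450427 and the Snrpn and Snurf start is chr7:60005150-60005449. The Snrpn promoter is known to be methylated on the maternal chromosome, and CG pairs are the bases at which this happens.
Snhg14 and Snrpn, upstream start: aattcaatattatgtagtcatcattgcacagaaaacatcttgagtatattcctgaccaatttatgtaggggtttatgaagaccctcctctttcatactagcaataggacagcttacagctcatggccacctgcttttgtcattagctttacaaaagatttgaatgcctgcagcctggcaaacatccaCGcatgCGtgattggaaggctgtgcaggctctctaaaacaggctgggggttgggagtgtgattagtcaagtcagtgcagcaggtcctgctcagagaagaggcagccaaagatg
Snrpn and Snurf start: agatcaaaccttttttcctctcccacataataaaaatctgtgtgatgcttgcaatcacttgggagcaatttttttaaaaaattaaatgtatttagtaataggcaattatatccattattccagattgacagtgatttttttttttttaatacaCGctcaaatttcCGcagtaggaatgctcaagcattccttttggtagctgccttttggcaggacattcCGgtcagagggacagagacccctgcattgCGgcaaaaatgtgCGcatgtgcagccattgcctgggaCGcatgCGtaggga
The upstream window holds 2 CG pairs, and 85.9% of the 32851 RefSeq promoters of the same length hold at least as many. The Snrpn and Snurf window holds 7, which is the median over all promoters, and 52.1% hold at least as many. No methylation was measured in this study.

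Among the members, which were chosen by name, Snord64 had the most reads. Entries of the imprinted regions under other names, such as AF357428 with 303758 reads, are given further below and are not counted here. Over all 18 libraries, 71747 reads lay on Snord64, which was 0.493% of the 14559880 Snord reads and ranked 32 of the 85 distinct Snord entries. It accounted for 92.9% of the 77193 reads on the imprinted Snord entries, which together made up 0.530% of Snord reads. Snord64 is present as a single entry and, of the members with a place in the RefSeq table (Snord107 has none), lies nearest to Snrpn. Snord116l1, which stands for 14 copies, had 2204 reads, or 0.0151% of Snord reads (rank 71). Snord107, also counted to the Snrpn host, had 171 reads (rank 83), in 13 of the 18 libraries. By comparison, the most abundant Snord entry, Snord80, took 27.1% of Snord reads. The table gives no lengths, so these are orders of reads and not of molecules.

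The RefSeq gene order (GRCm38.p6, used only for names and neighbours) shows what the table holds around these members. From Ipw to Snrpn, another 51 snoRNA entries with predicted names were present, 20 of them distinct, with 22 to 2207 reads each, and 23 of the 51 held the same reads as a Snord116 entry. Between Ube3a and Ipw, where the Snord115 array lies, the table had 133 snoRNA entries with predicted names, 53 of them distinct. These had 130 to 21178 reads each (median 12489), with the most on Gm24862. That median is set by repeated copies, and over the 53 distinct entries it was 1809, with 29 entries below Snord116l1 (2204) and 24 above it. Each single entry had fewer reads than Snord64 (71747), but the sum of the 53 distinct entries was above Snord64 in the mean of each group. Relative to Snord reads, group means were 0.915% to 2.08% for this sum and 0.412% to 0.833% for Snord64. A read that matches several of these entries may have been counted on each. Since the table does not call these entries Snord115, they are described by position only and are in no Snord share.

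**Figure D1:**
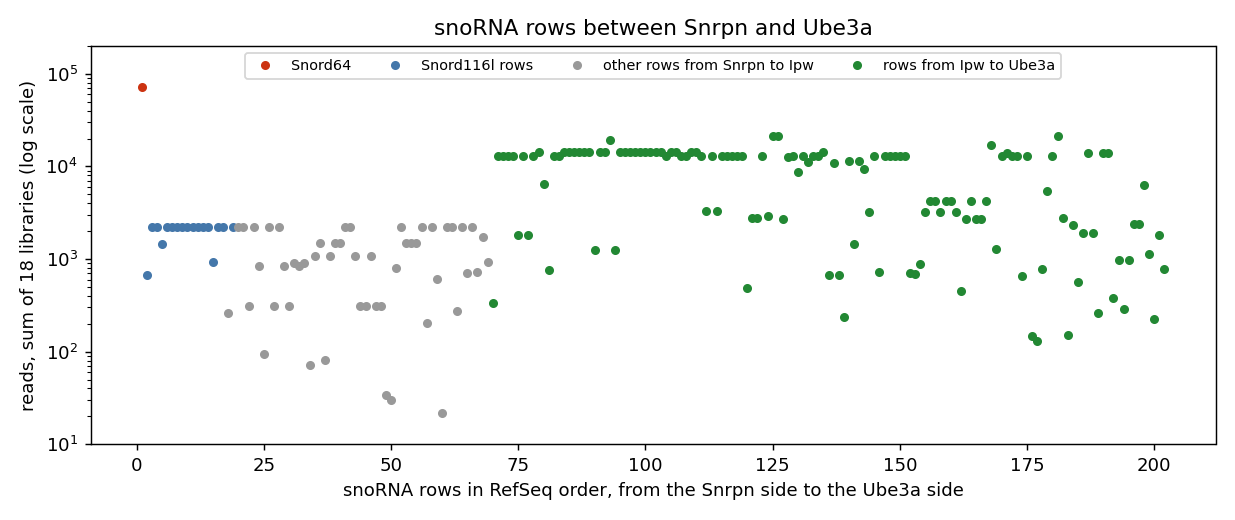
Reads summed over the 18 libraries (y axis, log scale) for each snoRNA entry between Snrpn and Ube3a, in RefSeq gene order (x axis, rank). Snord64, at 71747 reads, is the highest point, the Snord116 entries lie between 675 and 2206, and the entries between Ipw and Ube3a reach 21178.

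The 17 Snord116 entries fell into a large set and 3 divergent copies. The 14 near-identical entries had 2203 to 2206 reads each. Snord116l9 had 1460 reads, or 66.2% of Snord116l1, Snord116l14 had 936 (42.5%) and Snord116l12 had 675 (30.6%). In each of the 15 libraries with Snord116 reads, these 3 entries had no more reads than Snord116l1. A read that matches several copies may have been counted on each, so the summed Snord116 share may count 1 read up to 4 times.

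**Figure D2:**
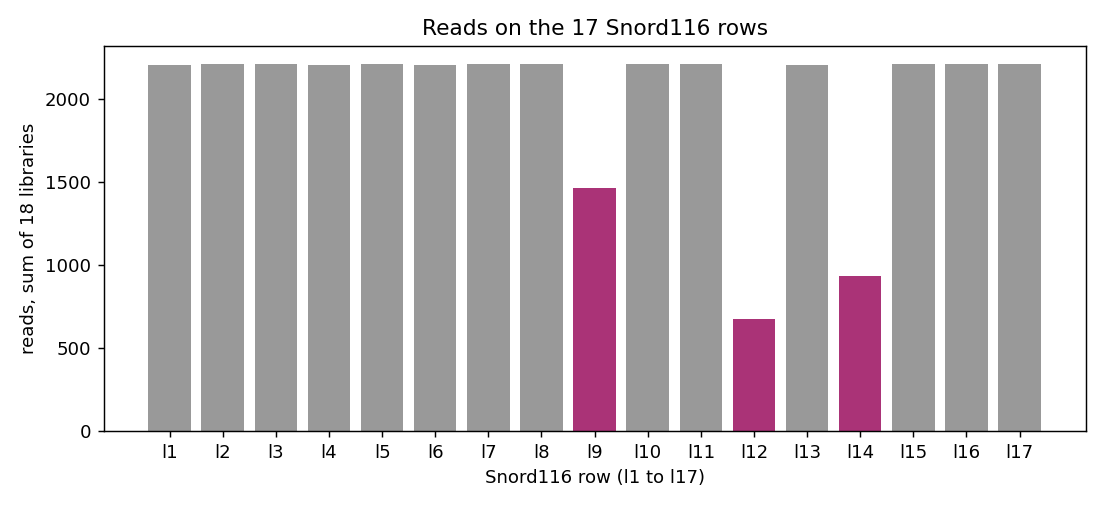
Reads summed over the 18 libraries (y axis) on each of the 17 Snord116 entries (x axis). Grey bars are the 14 near-identical copies at 2203 to 2206 reads, and purple bars are Snord116l9 (1460), Snord116l12 (675) and Snord116l14 (936).

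The proportions among the copies were not the same in all mice. In the 7 libraries with at least 100 reads on Snord116l1, Snord116l12 had 15.7% to 25.5% of the Snord116l1 count in the 3 WT shRTP801 mice and 35.6% to 43.9% in the other 4 mice. Snord116l14 had 32.6% to 37.1% in the WT shRTP801 mice and 43.5% to 53.5% in the others. Snord116l9 went the other way, with 67.0% to 84.3% in WT shRTP801 mice and 50.0% to 63.5% in the others. At this cut of 100 reads, the 3 WT shRTP801 mice lay apart from the other 4 for each of these copies. The other 4 were WT shCT mouse 15, 5xFAD shCT mice 16 and 18 and 5xFAD shRTP801 mouse 19. Below the cut, where reads were few, the separation did not hold. WT shCT mouse 11 (Snord116l9 at 0.0135% of Snord reads, Snord116l1 at 0.0155%) had a higher Snord116l9 ratio than every WT shRTP801 mouse. 5xFAD shRTP801 mouse 12 (Snord116l12 at 0.000764%, Snord116l1 at 0.00687%) had a lower Snord116l12 ratio than these mice. All 3 ratios share the Snord116l1 count, so they are not 3 separate observations. The pattern was noticed in the data and was not tested. With so few mice in the other groups it has no group comparison, and it has no background from other Snord genes.

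Snord64 was read in every library. In WT shCT mice, Snord64 made up 0.663% (mouse 3), 1.45% (mouse 5), 0.754% (mouse 6), 0.947% (mouse 11) and 0.350% (mouse 15) of Snord reads. The value of mouse 5 rests on 1 read, with a Wilson 95% interval of 0.256% to 7.76%. Leaving it aside, the WT shCT mice spanned a wide range, from a level like that of the 5xFAD shCT mice to one of the highest of all mice.

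In WT shRTP801 mice, the share of Snord64 was 0.545% (mouse 4), 0.396% (mouse 10), 0.368% (mouse 17) and 0.377% (mouse 21). Mouse 4, with 34 Snord64 reads and an interval of 0.390% to 0.760%, was the highest, and the other 3 lay close together. In 5xFAD shCT mice, the share of Snord64 was 0.472% (mouse 1), 0.462% (mouse 16) and 0.301% (mouse 18). These 3 mice overlapped with the WT shRTP801 mice.

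In 5xFAD shRTP801 mice, the share of Snord64 was 0.658% (mouse 2), 0.328% (mouse 7), 0.603% (mouse 8), 0.790% (mouse 12), 1.25% (mouse 14) and 0.671% (mouse 19). Mouse 7 rests on 3 Snord64 reads (interval 0.112% to 0.960%), and the other 5 mice were all above every 5xFAD shCT and every WT shRTP801 mouse of the study. The groups overlapped with mouse 7 included. Without the 3 libraries with few Snord reads, 5xFAD shRTP801 mice lay apart from 5xFAD shCT mice for 8.22% of the 73 Snord genes. From WT shRTP801 mice they lay apart for 19.2%.

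The mean share of Snord64 thus ran, from high to low, from WT shCT (0.833% ± 0.406, SD, n = 5) through 5xFAD shRTP801 (0.717% ± 0.304, SD, n = 6) and WT shRTP801 (0.422% ± 0.0830, SD, n = 4) to 5xFAD shCT (0.412% ± 0.0960, SD, n = 3). Neighbours in this order did not differ beyond their spread. Without the 3 libraries with few Snord reads, 5xFAD shRTP801 mice came first (0.795% ± 0.265, SD, n = 5), before WT shCT (0.679% ± 0.249, SD, n = 4), 5xFAD shCT (0.412%) and WT shRTP801 (0.380% ± 0.0145, SD, n = 3).

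On the scale of all reads, Snord64 looked different. Without the 3 libraries, it took 0.00675% to 0.0175% of all reads in WT shCT mice, 0.0166% to 0.0214% in WT shRTP801 mice, 0.0191% to 0.0257% in 5xFAD shCT mice and 0.00437% to 0.0274% in 5xFAD shRTP801 mice. On this scale every 5xFAD shCT mouse was above every WT shCT mouse, as groups lay apart for 19.2% of the 73 Snord genes, whereas as a share of Snord reads 5xFAD shCT mice were at the low end. Beside it, Snord reads as a whole took 4.87% to 6.35% of all reads in the 5xFAD shCT libraries and 0.712% to 4.52% in the 4 WT shCT libraries.

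Snord116l1, which stands for the 14 near-identical copies, was at 0 reads in the 3 libraries with few Snord reads, where a count of 0 still allows up to 4.35% (WT shCT mouse 5), 0.328% (5xFAD shRTP801 mouse 7) and 0.0481% (WT shRTP801 mouse 4) of Snord reads. These limits are above the share in every other library, so Snord116 was not detectable there at this depth. In WT shCT mice 3, 6, 11 and 15, Snord116l1 had 27, 23, 23 and 126 reads, or 0.00442%, 0.00489%, 0.0155% and 0.00828% of Snord reads. In WT shRTP801 mice 10, 17 and 21, it had 218, 660 and 305 reads, or 0.0191%, 0.0390% and 0.0240%. These 3 WT shRTP801 mice were above the WT shCT mice with reads on Snord116l1. Without the 3 libraries with few Snord reads, these groups lay apart for 9.59% of the 73 Snord genes. With all mice, the groups overlapped for Snord116l1.

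In 5xFAD shCT mice 1, 16 and 18, Snord116l1 had 69, 124 and 344 reads, or 0.00476%, 0.00771% and 0.0200% of Snord reads. In 5xFAD shRTP801 mice 2, 8, 12, 14 and 19, it had 63, 15, 9, 35 and 163 reads, or 0.00791%, 0.00461%, 0.00687%, 0.00687% and 0.0142%. These groups overlapped, and 5xFAD shCT mouse 18 was the only mouse outside the WT shRTP801 group with a share above 0.0191%. Mouse 18 was thus high for Snord116l1 and, at 0.301%, the lowest of all 18 mice for Snord64.

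**Figure D3:**
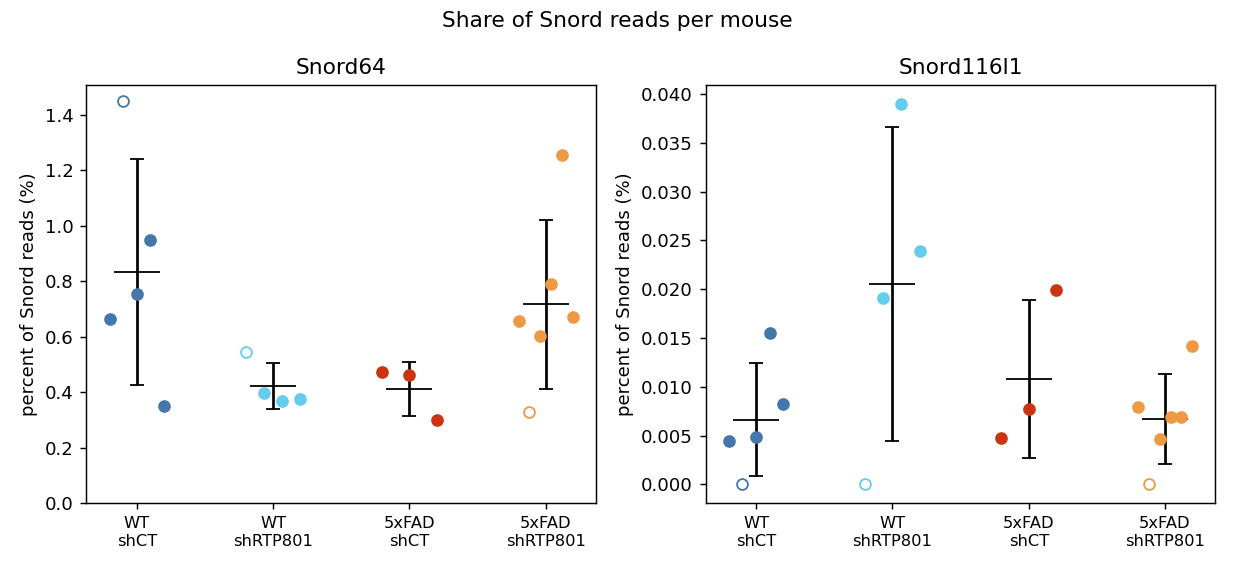
Percentage of Snord reads (y axis) on Snord64 (left) and Snord116l1 (right) for each mouse in the 4 groups. Points are mice, open points are the 3 libraries with fewer than 10000 Snord reads, and black bars are the mean ± SD over all mice of a group. The filled 5xFAD shRTP801 points lie above the 5xFAD shCT and WT shRTP801 points for Snord64, and the filled WT shRTP801 points (0.0191% to 0.0390%) lie above the WT shCT points for Snord116l1. Without the open points, groups lay apart for 8.22%, 19.2% and 9.59% of the 73 Snord genes in these comparisons, in that order.

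Snord107 was near the limit of detection. It had at most 38 reads in a library (5xFAD shCT mouse 18, 0.00221% of Snord reads) and was at 0 in 5 libraries. Group means ran from 0.000691% ± 0.000750 (SD, n = 4) in WT shRTP801 mice to 0.00122% ± 0.000935 (SD, n = 3) in 5xFAD shCT mice, and all groups overlapped. The divergent copies Snord116l9, Snord116l12 and Snord116l14 reached at most 0.0279%, 0.00992% and 0.0145%, each in WT shRTP801 mouse 17. That mouse was thus the highest for all 4 distinct Snord116 entries.

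In the comparison of 5xFAD shCT with WT shCT mice, which asks what the genotype does, no member passed the test. Snord64 had a change of -0.88 (95% interval -1.99 to 0.23, adjusted p = 0.729), and Snord116l1 was at 0.33 (-0.83 to 1.48, adjusted p = 0.873). These are changes of log2(percentage of Snord reads + 0.01%) from limma over the 73 Snord genes with a mean of at least 0.01%, which include Snord64 and Snord116l1 but not the other 4 distinct members. The background was 0.0% called at an adjusted p under 0.05 and 8.22% (6 of 73) at an unadjusted p under 0.05, of which 0 were members. The median Snord gene was at 0.33, and 63 of the 72 other genes had a higher change than Snord64. Together, the members made up 0.440% ± 0.0754 (SD, n = 3) of the Snord reads of 5xFAD shCT mice, while in WT shCT mice this was 0.850% ± 0.401 (SD, n = 5), so the log2 ratio was -0.95 (exact two-sided permutation test, p = 0.143, adjusted p = 0.206, smallest possible p = 0.0179). As a percentage of all reads, the same sum gave a log2 ratio of 1.08 (exact permutation p = 0.0536, adjusted p = 0.107), so the direction depends on the denominator. With all mice, the groups of each of the 6 members overlapped in all 4 comparisons, beside 1.37%, 6.85%, 2.74% and 1.37% of Snord genes whose groups did not, in the order in which the comparisons are given. Without the 3 libraries with few Snord reads, the 6 members still overlapped here, beside 4.11% that did not.

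Between 5xFAD shRTP801 and 5xFAD shCT mice, the comparison of RTP801 silencing in the model, Snord64 had a log2 change of 0.71 (95% interval -0.37 to 1.78, limma adjusted p = 0.986) and Snord116l1 of -0.29 (-1.41 to 0.82, adjusted p = 0.986). The background was 0.0% by adjusted and 0.0% by unadjusted p, and the median Snord gene was at -0.01. The members together made up 0.735% ± 0.310 (SD, n = 6) with the shRNA against RTP801 and 0.440% ± 0.0754 (SD, n = 3) with the control, for a log2 ratio of 0.74 (exact two-sided permutation test, p = 0.155, adjusted p = 0.206). As a percentage of all reads, the log2 ratio was -0.66 (exact permutation p = 0.310). Without 5xFAD shRTP801 mouse 7 and the other 2 libraries with few Snord reads, Snord64 did not overlap between the groups, as was so for 8.22% of the 73 Snord genes. Its log2 change was then 0.91 (limma unadjusted p = 0.0247, adjusted p = 0.363), beside 12.3% of genes with an unadjusted p under 0.05 and 0.0% called.

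Between WT shRTP801 and WT shCT mice, Snord64 had a log2 change of -0.84 (95% interval -1.86 to 0.18, limma adjusted p = 0.732) and Snord116l1 of 0.74 (-0.33 to 1.80, adjusted p = 0.763). The background was 0.0% by adjusted and 8.22% by unadjusted p, and the median Snord gene was at 0.60, so relative to it Snord64 was at -1.44 and Snord116l1 at 0.13. The summed share was 0.470% ± 0.0514 (SD, n = 4) against 0.850% ± 0.401 (SD, n = 5; exact two-sided permutation test, p = 0.103, adjusted p = 0.206), and the summed Snord116 share was 0.0473% ± 0.0377 against 0.0161% ± 0.0135 (log2 ratio 1.55, exact permutation p = 0.135, adjusted p = 0.206). As a percentage of all reads, the log2 ratio was 0.53 for the sum and 2.73 for Snord116 (exact permutation p = 0.0476, adjusted p = 0.107). When the 3 libraries were left out, the Snord116 shares of the groups lay apart (0.0630% ± 0.0254, n = 3, against 0.0201% ± 0.0117, n = 4; exact permutation p = 0.0286, the smallest possible, adjusted p = 0.107), as did those of Snord116l1, Snord116l12 and Snord116l14, beside 9.59% of the 73 Snord genes. In that fit, Snord116l1 had a log2 change of 1.04 (limma unadjusted p = 0.0113, adjusted p = 0.113), with the median Snord gene at 0.23. Beside it, 13.7% of genes had an unadjusted p under 0.05 and 4.11% were called.

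Between 5xFAD shRTP801 and WT shRTP801 mice, Snord64 had a log2 change of 0.67 (95% interval -0.32 to 1.65, limma adjusted p = 0.966) and Snord116l1 of -0.70 (-1.73 to 0.32, adjusted p = 0.966). The background was 0.0% by adjusted and by unadjusted p, and the median Snord gene was at -0.24. The summed share was 0.735% ± 0.310 (SD, n = 6) against 0.470% ± 0.0514 (SD, n = 4; exact two-sided permutation test, p = 0.110, adjusted p = 0.206), and the log2 ratio of 0.65 became -0.11 as a percentage of all reads. The summed Snord116 share was 0.0174% ± 0.0111 against 0.0473% ± 0.0377 (log2 ratio -1.45, exact permutation p = 0.0810, adjusted p = 0.206). With the 3 libraries left out, Snord64, Snord116l1 and Snord116l9 lay apart between the groups, beside 19.2% of the 73 Snord genes, with log2 changes of 0.99 for Snord64 (limma adjusted p = 0.107) and -1.03 for Snord116l1 (adjusted p = 0.0912). The background of that fit was 0.0% called and 24.7% with an unadjusted p under 0.05.

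**Figure D4:**
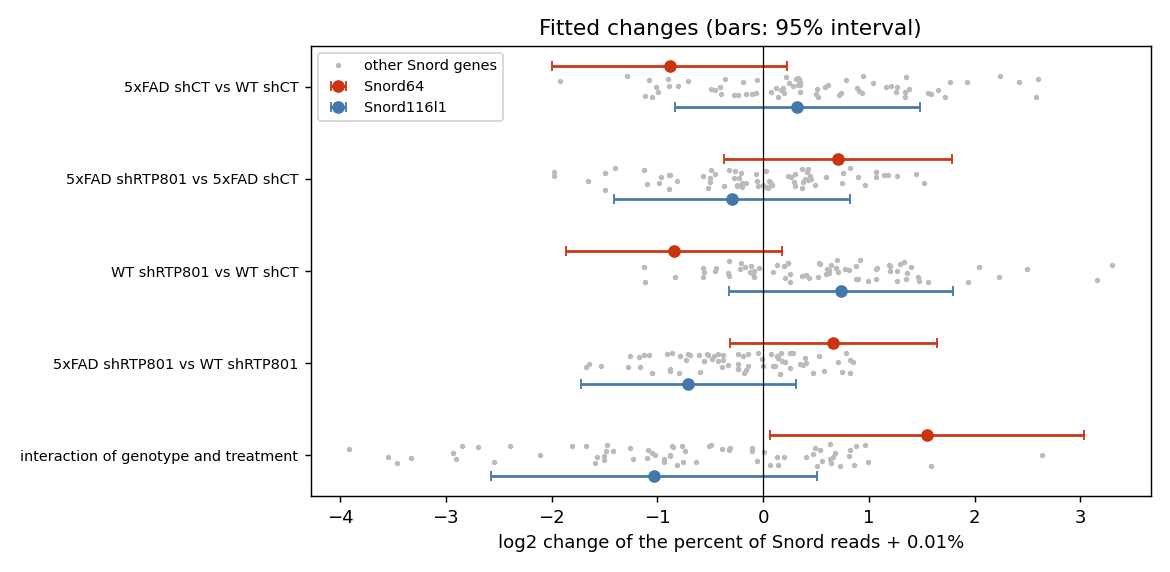
Fitted log2 change of the percentage of Snord reads + 0.01% (x axis) in the 4 comparisons and the interaction (rows). Red and blue points with bars are Snord64 and Snord116l1 with 95% intervals, and grey points are the other 71 Snord genes. The interval of Snord64 excludes 0 only for the interaction (0.07 to 3.03), before adjustment for the 73 genes.

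Over all libraries, Snord64 held 92.9% of the reads in the sum of the members, so results for the sum are largely those of Snord64. For this sum, the difference between shRTP801 and shCT mice had opposite signs in the WT and 5xFAD genotypes. On the scale of mean log2 shares, it was 0.65 in 5xFAD mice and -0.73 in WT mice, an interaction of 1.37 (exact permutation of the treatment within genotype, two-sided, p = 0.0197 over 10584 regroupings). The regroupings assume no effect of the shRNA in either genotype, so the p-value is not exact for equal effects in both. The interaction was 1 test and not adjusted. Leaving out each mouse in turn gave 1.15 to 1.63, and without 5xFAD shCT mouse 18 it no longer passed (1.22, exact permutation p = 0.0558). Without the 3 libraries with few Snord reads it was 1.43 (exact permutation p = 0.00612), and Snord64 in limma was at 1.64 (unadjusted p = 0.00669, adjusted p = 0.0611), beside 27.4% of genes with an unadjusted p under 0.05 and 1.37% called. As a percentage of all reads, with the 3 libraries included, the interaction was -3.58 (exact permutation p = 0.368). Its direction thus holds for the share of Snord reads and not for the share of all reads.

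In limma, the interaction of Snord64 was 1.55 (95% interval 0.07 to 3.03, unadjusted p = 0.0413, adjusted p = 0.390), against a median Snord gene at -0.74, and only 2 of the 72 other genes were higher. Snord64 was thus 1 of the 9 of 73 genes (12.3%) with an unadjusted p under 0.05, and 0.0% were called by adjusted p. With sample weights, which give less weight to libraries that vary more, it was called (1.5, adjusted p = 0.0359) with 7 other Snord genes, although the estimation of the weights stopped before it converged. Snord116l1 was at -1.03 (-2.57 to 0.51, adjusted p = 0.808), the other direction from Snord64, with 47 of the 72 other genes higher. Its mean share over all mice was 0.0104%, so the 0.01% added before the log2 makes its changes smaller. Without the 3 libraries with few Snord reads, Snord116l1 was at -1.19 (limma adjusted p = 0.134), with 57 genes higher and the median gene at -0.23. In edgeR over all mice, it was at -2.18 (adjusted p = 0.254), with the median gene at -0.16. Relative to the median Snord gene, Snord64 was at 2.29 as a share of Snord reads and at 1.40 as a percentage of all reads. As a percentage of all snoRNA reads, over all mice, the interaction of Snord64 was 0.14 (limma adjusted p = 0.958), with the median snoRNA gene at -0.80.

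The share of Snord64 moved with the number of Snord reads of a library. Over the 15 libraries with at least 10000 Snord reads, the share of Snord64 and the log10 number of Snord reads had Pearson r = -0.70 (permutation p = 0.00370, adjusted p = 0.00740) and Spearman rho = -0.84 (permutation p = 0.00023, adjusted p = 0.00092; 4 tests). Leaving out the 2 libraries farthest from the median gave r = -0.70. For Snord116l1, r was 0.38 (permutation p = 0.158) and rho 0.50 (permutation p = 0.0600). The Snord reads are the denominator of the share, so these measures are not independent. Snord reads also differed between the groups: the libraries of 5xFAD shCT mice had 1450044 to 1722571, the 5 libraries of 5xFAD shRTP801 mice 130957 to 1151912. In WT mice the order was the other way, with overlap: 148294 to 1522061 with shCT and 1138779 to 1693148 with shRTP801, among libraries with at least 10000. The part of this in the group differences was not tested.

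**Figure D5:**
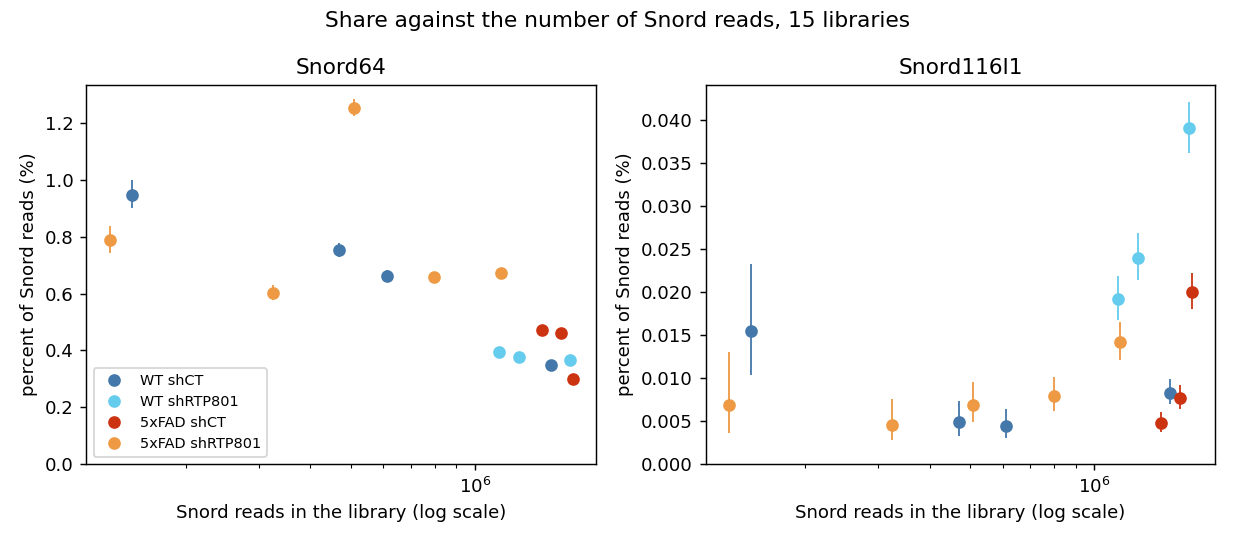
Percentage of Snord reads (y axis) on Snord64 (left) and Snord116l1 (right) against the number of Snord reads in the library (x axis, log scale) for 15 libraries, coloured by group, with Wilson 95% intervals that cover counting error only. Snord64 falls from left to right (r = -0.70), with 5xFAD shRTP801 mouse 14 (1.25%) above the others.

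Other imprinted snoRNAs were compared by position, with all snoRNA genes in a fit of their own (log2 percentage of all snoRNA reads + 0.01%, limma). Among the 24 distinct entries between Ube3a and Ipw that were tested, 0 were called in any comparison or the interaction, as in the background of 0.0% of 151 genes, and 0 had an unadjusted p under 0.05, beside 3.97%, 0.0%, 4.64% and 1.32% of the 151 genes in the 4 comparisons and 4.64% in the interaction. Relative to Snord reads, the sum of all 53 distinct entries of this region, tested or not, was 2.08% ± 1.27 (SD, n = 5) in WT shCT, 1.91% ± 0.689 (SD, n = 4) in WT shRTP801 and 1.24% ± 0.635 (SD, n = 3) in the 5xFAD shCT mice. It was 0.915% ± 0.661 (SD, n = 6) in 5xFAD shRTP801 mice, and the groups overlapped.

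Without the 3 libraries with few Snord reads, 26 distinct entries between Ube3a and Ipw were tested, and again 0 were called, beside 0.0%, 0.0%, 1.25% and 0.0% of the 160 genes in the 4 comparisons and 5.0% in the interaction. Between 5xFAD shRTP801 and WT shRTP801 mice, 16 of the 26 had an unadjusted p under 0.05 (lowest limma adjusted p = 0.115), beside 29.4% of the 160 genes. Their median log2 change was -0.89 and 0 of 26 were positive, whereas the median of all 160 genes was -0.20. Between WT shRTP801 and WT shCT mice, all 26 changes were positive (median 0.43, against 0.20 over all genes) and 0 had an unadjusted p under 0.05, beside 9.38%. The interaction had 3 entries with an unadjusted p under 0.05, beside 21.2%, and in the other comparisons there were 0, beside 6.25% (5xFAD shCT against WT shCT) and 8.75% (5xFAD shRTP801 against 5xFAD shCT). The entries lie in a repeated array, so they are not independent of each other. Taken over all reads, the sum of the region was 0.102% to 0.117% in WT shRTP801 mice, above the WT shCT mice (0.0168% to 0.0702%) and the 5xFAD shRTP801 mice (0.00452% to 0.0861%), as groups lay apart on this scale for 39.7% and 34.2% of the 73 Snord genes. Relative to Snord reads, both pairs of groups overlapped. The 51 entries from Ipw to Snrpn had too few reads for this fit. The 17 distinct entries among them that are no copy of a Snord116 entry had, relative to Snord reads, the highest summed mean in WT shRTP801 mice (0.0610% ± 0.0525, SD, n = 4) and the lowest in WT shCT mice (0.0228% ± 0.0178, SD, n = 5).

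Of the snoRNA entries from Meg3 to Mirg, 12 were present under other names, with 57 to 303758 reads, the most on AF357428, then AF357341 (171787) and Gm23736 (94974). Their sum relative to Snord reads was 2.32% to 4.44% in 5xFAD shCT mice and 5.38% to 18.5% in 5xFAD shRTP801 mice, which did not overlap, as was so for 6.85% of the 73 Snord genes. Over all reads, the sum was 0.134% to 0.242% in 5xFAD shCT mice and 0.0630% to 0.235% in the 5 5xFAD shRTP801 mice other than mouse 7 (0.000897%), which overlapped. Relative to Snord reads, it was 1.91% to 18.8% in WT shRTP801 and 2.19% to 31.9% in WT shCT mice, which overlapped. Of the 7 entries tested, 0 were called over all mice. Without the 3 libraries with few Snord reads, AF357428 (log2 2.78, 95% interval 1.14 to 4.41) and AF357341 (2.55, 1.04 to 4.07) were called for the interaction (limma adjusted p = 0.0473 for both), beside a background of 5.0% (8 of 160) by adjusted and 21.2% by unadjusted p. In the same fit Snord64 was not called (limma adjusted p = 0.10). The calls are for shares of all snoRNA reads, and these entries were not fitted over all reads. Over all reads without the 3 libraries, the sum overlapped between WT shCT (0.0990% to 0.218%) and WT shRTP801 mice (0.0940% to 0.247%). Among the 15 other libraries, its ratio to Snord reads was highest in WT shCT mouse 11 (19.7%, 148294 Snord reads). It was lowest in WT shRTP801 mouse 17 (1.91%, 1693148 Snord reads). A relation to depth was not tested for these entries. The microRNAs of that region were sparse, with 15 entries and 2556 reads in total.

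Snord genes from hosts that are not imprinted were compared with the same fit as the members. Of the snoRNAs cut from Gas5, a growth-arrest transcript, 3 were tested, 1 from Snhg1 and 4 from Rpl13a, a ribosomal protein gene, and 0 of these were called in any of the 4 comparisons or the interaction. The medians of the Rpl13a snoRNAs were 1.88 for 5xFAD shCT against WT shCT, 1.42 for WT shRTP801 against WT shCT and -2.86 for the interaction, opposite in sign to Snord64. In other fits, Snord35a of Rpl13a was called for WT shRTP801 against WT shCT and for the interaction. This was so without the 3 libraries with few Snord reads, with edgeR and with sample weights, the last also for Snord32a. With DESeq2, Snord35a was called for the interaction only. The Snord genes whose shares ran most like the summed Snord116 share over the 18 libraries, of 67 with a median of at least 100 reads, were Snord70 (Spearman rho 0.86), Snord1c (0.86) and Snord68 (0.85). For Snord64 they were Snord69 (0.67), Snord93 (0.59) and Snord37 (0.59). All of these share the denominator and the depth of their library.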

How the data were processed

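Hydro-tRNA-seq was performed on hippocampal RNA of 60 to 100 nucleotides from 18 mice, 1 library per mouse, in 4 groups. The authors merged and mapped the paired-end reads and counted them per tRNA and small RNA with tRAX. They scaled each library by its own size factor and deposited this normalized signal. Per the submitters' processing notes the build is mm39. The tRAX version and the aligner are not given in the sources used here. In every library 100% of the values were whole multiples (tolerance 0.01) of the smallest non-zero value, and this division gave the reads. For 1 library (WT shCT mouse 15) the value of 1 read is close to 1.

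Entries whose reads differed by at most 5%, summed over the libraries, were counted once. Shares are percentages of Snord reads, with Wilson 95% intervals and a floor of 3 counts for a count of 0, which cover counting error only. Libraries held 18126382 to 34488883 reads with copies counted once. Whether mice were processed in batches is not given in the sources used here, so p-values measure the spread between these mice.

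Snord genes were fitted with limma 3.58.1 (R 4.3.3) on log2(percentage + 0.01%), for genes with a mean of at least 0.01%, with 1 mean per group, Benjamini-Hochberg adjustment and a threshold of 0.05. For summed shares, group means were tested by exact two-sided permutation in Python 3.11.15 (numpy 2.4.6, pandas 2.3.3, scipy 1.17.1; figures with matplotlib 3.10.9), adjusted over 8 tests. The planned tests of a Snord115 share and of its ratio to Snord116 could not be run, since the count of names that start with Snord115 was 0. The methods were tested on simulated data. Correlations used 100000 permutations. Alternatives were other pseudocounts and filters, other denominators, the deposited values, all copies counted, a mean-variance trend, sample weights, edgeR 4.0.16 and DESeq2 1.42.0 on the recovered reads, and leaving out each mouse. Leaving out the 3 libraries with fewer than 10000 Snord reads, a fit over all snoRNA genes, and 1 entry for Snord116 were chosen after seeing the data.

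The members and lists were chosen with earlier results of these data known. Named in full by the rule were members with at least 1% of Snord reads or called in a comparison, of which there were 0. Snord64, Snord116l1 and Snord107 were described in full after their values were seen, as were the neighbours and the genes most like Snord64. Names and gene order come from RefSeq (GRCm38.p6), which is not the build of the files, so no coordinates of the members are given.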

Additional observations from a re-analysis of the deposited data

Results flagged for a closer look

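The share of Snord64 in WT shRTP801 mouse 4 (0.545%) lay far from the other 3 mice of its group (0.368% to 0.396%). This library had 6242 Snord reads and 34 Snord64 reads, and the lower end of its interval was 0.390%. Chance flags such a sample in about 1 in 20 groups of values, and 12 groups were examined, so 1 flag by chance would not be unusual.

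The difference between shRTP801 and shCT in the summed share of the imprinted snoRNAs itself differed between 5xFAD and WT mice, with an interaction of 1.37 on the log2 scale (exact permutation within genotype, p = 0.0197). As a percentage of all reads it was -3.58 (exact permutation p = 0.368). The regroupings assume no effect of the shRNA in either genotype. Snord64 held 92.9% of the reads of this sum over all libraries, and Snord116l1 alone had an interaction of -1.03 (limma adjusted p = 0.808). As a percentage of all snoRNA reads, over all mice, the interaction of Snord64 was 0.14 (limma adjusted p = 0.958).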

How the results depend on the processing

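No paired analysis was possible because the groups share no mouse numbers. Over 33 alternatives per comparison, no member was called, except Snord64 in the interaction with sample weights, where members called numbered 1 (1.5, limma adjusted p = 0.0359). The number of Snord genes called rose from 0 to 7 for WT shRTP801 against WT shCT and to 8 for the interaction with sample weights, to 3 and 1 without the 3 libraries with few Snord reads, to 1 and 1 with edgeR (also without the 3 libraries), to 0 and 1 with DESeq2, and to 2 of 160 and 8 of 160 with all snoRNA genes without the 3 libraries. Leaving out a single mouse also raised it for WT shRTP801 against WT shCT, to 4 without WT shCT mouse 6 and to 2 without 5xFAD shRTP801 mouse 7, of which 0 were members. The direction turned with the denominator. As a percentage of all reads, the log2 ratio of the summed share was 1.08 (5xFAD shCT against WT shCT), -0.66 (5xFAD shRTP801 against 5xFAD shCT), 0.53 (WT shRTP801 against WT shCT) and -0.11 (5xFAD shRTP801 against WT shRTP801), and the interaction was -3.58. In the deposited normalized values these were 1.04, -0.83, 0.49, -0.28 and -3.64. Snord64 in limma turned likewise, in the order of the first 3 comparisons and the interaction, to 2.17, -1.76, 0.40 and -2.17 as a percentage of all reads, and to 2.79, -2.33, 0.97 and -3.29 in the deposited values, with -0.50 for 5xFAD shRTP801 against WT shRTP801. With all snoRNA genes, the change of Snord64 was 0.26 for 5xFAD shCT against WT shCT. Snord genes as a whole shifted too: the median was 2.51, -2.36, 1.11, -0.92 and -3.56 as a percentage of all reads. These values include the 3 libraries with few Snord reads, which weigh heavily on a log2 scale. In them, Snord reads were 0.000348%, 0.00485% and 0.0344% of all reads, against 0.554% to 6.35% in the other 15 libraries. The fits over all reads were not repeated without them, so the size of these changes is uncertain. Leaving out each mouse gave -0.062 to 1.28 for the Snord116 share in 5xFAD shCT against WT shCT and -0.97 to 0.17 in 5xFAD shRTP801 against 5xFAD shCT. Both signs turned without 5xFAD shCT mouse 18, as did Snord116l1 in the latter (range -0.51 to 0.00190). The interaction of the summed share ranged from 1.15 to 1.63 and no longer passed without that mouse (1.22, exact permutation p = 0.0558). The other values of the members kept direction and side of the threshold, though not always their size. Depth limits Snord107 and the Snord116 copies, which 3 libraries could not show, and the exact tests allow no p below 0.00476 to 0.0179.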
